A study of Mus musculus with 4 samples.

Results

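Integrin subunits were followed in tumor repopulating cells (TRCs) and parental cells of B16F1, a mouse melanoma cell line. The 10 genes were taken by name, with earlier results of these data known, from the integrin subunits whose receptors bind fibrin, fibronectin and laminin. They were Itgav, Itgb3, Itgb5, Itgb8, Itga5, Itga4, Itga9, Itgb1, Itga3 and Itga6. All 10 were found among the 39179 genes listed in the count tables, 6 of them alpha and 4 of them beta subunits. Polyadenylated RNA had been sequenced from 4 libraries, 2 of parental B16F1 cells (the control) and 2 of TRCs derived from soft 3D fibrin gels, with replicate numbers 1 and 3 in each group. The labels name no gene alteration and no drug in either group, and both groups came from the same cell line. The TRCs grew inside fibrin, itself an integrin ligand, while such cell lines are usually kept on rigid dishes, so selection, matrix and stiffness cannot be told apart. Nothing in the sources says whether the 2 libraries of a group came from separate cultures, so the p-values measure only the spread between these libraries.

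Integrins are receptors made of one alpha and one beta chain, through which cells hold on to the proteins of the extracellular matrix and pass force to the actin cytoskeleton. The alpha chain largely sets which ligand is bound, and the cytoplasmic tail of most beta chains binds talin and kindlin, which switch the receptor on and link it to actin. In melanoma the receptor of alpha-v and beta-3 is known for its link to invasive growth, and alpha-v receptors bind fibrin through its RGD sites.

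The beta chains that partner alpha-v differ in the end of their coding sequence, where the talin and kindlin sites lie. These ends are shown because, of the mRNAs of the 3 such chains, 1 rose, 1 fell and 1 was not called in TRCs. Each line gives the last 150 coding bases before the stop codon, 5′ to 3′ on the strand of the gene in build GRCm38, read from the GENCODE transcript. Capitals mark the codons of every asparagine-x-x-tyrosine motif that these bases encode. The Itgb3 bases lie within chr11:104665546-104667142 on the plus strand, the Itgb5 bases within chr16:33947825-33948749 on the plus strand, the Itgb8 bases within chr12:119163120-119163366 on the minus strand and the Itgb1 bases within chr8:128726100-128732085 on the plus strand, and a span longer than 150 bases holds an intron.
Itgb3: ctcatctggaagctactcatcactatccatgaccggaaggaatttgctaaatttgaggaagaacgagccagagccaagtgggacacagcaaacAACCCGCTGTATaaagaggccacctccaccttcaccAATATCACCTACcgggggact
Itgb5: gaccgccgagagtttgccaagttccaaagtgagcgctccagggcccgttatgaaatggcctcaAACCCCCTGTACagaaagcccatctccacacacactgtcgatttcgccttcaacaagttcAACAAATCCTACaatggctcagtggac
Itgb8: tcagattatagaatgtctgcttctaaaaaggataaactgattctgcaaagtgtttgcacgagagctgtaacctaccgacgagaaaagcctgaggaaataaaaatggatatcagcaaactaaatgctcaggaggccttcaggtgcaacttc
Itgb1: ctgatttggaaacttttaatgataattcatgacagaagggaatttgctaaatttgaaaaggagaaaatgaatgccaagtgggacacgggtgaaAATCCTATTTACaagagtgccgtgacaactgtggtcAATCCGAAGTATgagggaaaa
The ends of Itgb3, Itgb5 and Itgb1 each held 2 of these motifs, and the end of Itgb8 held 0. In the translated whole chains Itgb3 and Itgb5 were identical at 55.5% of aligned residues, and Itgb3 and Itgb1 at 45.6%. Over the last 50 residues Itgb3 and Itgb1 were identical at 62% of aligned positions, whereas Itgb3 and Itgb8 were identical at 10.6%. Among the alpha chains the closest pairs were Itgav with Itga5 at 47.1%, Itga4 with Itga9 at 43.6% and Itga3 with Itga6 at 40.6%.

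In TRCs the mRNAs of the beta-3 subunit, its partner alpha-v and alpha-9 rose, and those of beta-8 and the laminin-binding alpha-6 fell. Itgb3 was 3.69-fold higher, Itga9 2.94-fold higher and Itgav 1.62-fold higher, while Itgb8 was 9.92-fold lower and Itga6 1.65-fold lower. Of the 10 subunits 9 passed the filter on low counts, which kept genes with at least 1 CPM (counts per 1000000 counts on genes in the library) in at least 2 libraries, and 5 of these 9 were called at a false discovery rate (FDR) under 0.05 in the edgeR exact test over 11483 genes. Across all genes tested 15.9% were called. These subunits and the gene lists below were chosen with earlier results known, so the shares are a description and no test. In the upward direction 3 subunits were called against 8.81% of all genes, and in the downward direction 2 were called against 7.05%. Of those 2, Itgb8 passed the filter only through the control libraries, where it was high. With 1 CPM required in 3 libraries Itgb8 was not tested, and 1 member was called lower. The median log2 fold change of the 9 subunits was 0.03, beside 0.003 over all genes tested. For 7 of the 9 subunits the values of the groups did not overlap, beside 60.6% of all genes tested: the TRC values were the higher ones for 4, beside 30.2% of all genes, and the lower ones for 3, beside 30.4%. The calls of Itgav and Itga6 were less steady than those of Itgb3, Itga9 and Itgb8. With replicate number added as a factor, the edgeR quasi-likelihood test gave an FDR of 0.0543 for Itgav and 0.0576 for Itga6. Only RNA was measured, not protein. In bulk RNA such as this, fewer cells that express a gene and less RNA per cell cannot be told apart.

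**Figure D1:**
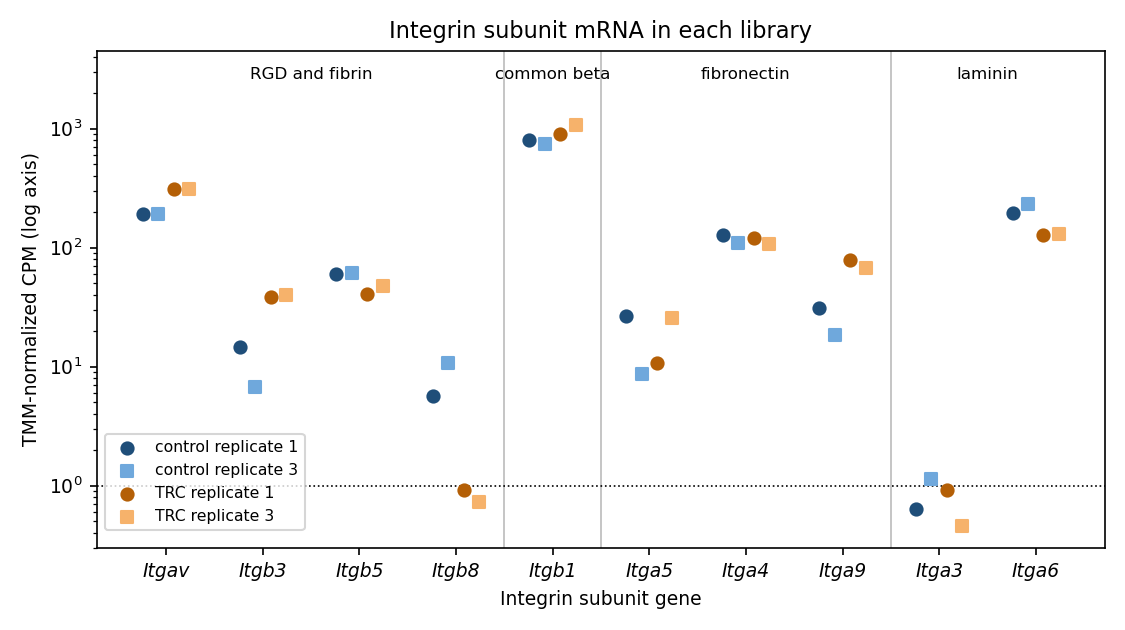
Level of each integrin subunit mRNA in each library, as TMM-normalized CPM on a log axis, with the genes grouped by ligand and the dotted line at 1 CPM. Blue points are the control libraries and orange points the TRC libraries; for Itgb3 the control points sit at 14.6 and 6.72 and the TRC points at 38.4 and 40.2, for Itgb8 the TRC points sit below the line, and for Itga5 the points of the groups interleave.

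Itgav encodes the alpha-v chain, the partner of beta-3, beta-5 and beta-8 in receptors that recognise RGD sequences in fibrin, vitronectin and latent TGF-beta, and it can also pair with beta-1. The gene (ENSMUSG00000027087) lies at chr2:83724397-83806916 on the plus strand of GRCm38. Its level was 191 CPM in both control libraries, whereas TRC replicate 1 reached 310 CPM and TRC replicate 3 reached 309 CPM. The replicates of each group were almost equal and the groups did not overlap. The log2 fold change was 0.70 with a standard error (SE, from DESeq2 as for all genes) of 0.18, and the FDR of the edgeR exact test was 0.0173. This call did not survive the loss of any library: the edgeR FDR rose to 0.0745 without control replicate 1, 0.133 without control replicate 3, 0.142 without TRC replicate 1 and 0.120 without TRC replicate 3, while the log2 fold change stayed between 0.68 and 0.70. When the dispersion was shrunk toward a value common to all genes, the FDR was 0.0689.

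Itgb3 encodes beta-3, the chain that with alpha-v forms a receptor for fibrin and vitronectin, and with the platelet chain alpha-IIb the fibrinogen receptor. The gene (ENSMUSG00000020689) lies at chr11:104608000-104670476 on the plus strand. Control replicate 1 had 14.6 CPM and control replicate 3 had 6.72 CPM, and the TRC libraries had 38.4 and 40.2 CPM. The TRC libraries were alike, the control libraries were further apart, and every TRC value exceeded every control value. The log2 fold change was 1.88 with an SE of 0.36 and an edgeR FDR of 9.60e-06. With one library left out at a time it ranged from 1.43 to 2.55 and remained called each time.

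Itgb5 encodes beta-5, another partner of alpha-v that binds vitronectin and takes part in the uptake of ligands. The gene (ENSMUSG00000022817) lies at chr16:33829665-33949338 on the plus strand. Control cells had 60.3 and 61.3 CPM and TRCs had 40.8 and 47.7 CPM. The TRC libraries were below both control libraries, but the log2 fold change of -0.46 with an SE of 0.21 was not called, with an edgeR FDR of 0.161. The 95% interval from DESeq2 ran from -0.88 to -0.04 before any adjustment over genes.

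Itgb8 encodes beta-8, a partner of alpha-v known for binding latent TGF-beta, whose tail lacked the motifs marked above. The gene (ENSMUSG00000025321) lies at chr12:119158022-119238802 on the minus strand. Its level was 5.67 CPM in control replicate 1, 10.6 CPM in control replicate 3, and it was 0.914 and 0.721 CPM in TRC replicates 1 and 3. These values rest on 252 and 375 counts in control cells and on 38 and 30 counts in TRCs. The control libraries were unequal, and both were several times above both TRC libraries. The log2 fold change was -3.31 with an SE of 0.50 and an edgeR FDR of 2.27e-08, and it ranged from -3.70 to -2.79 with one library left out at a time. Itgb8 passed the filter on low counts only through the control libraries, and with the filter raised to 3 libraries it was not tested.

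Itga5, Itga4 and Itga9 encode chains that pair with beta-1 and bind fibronectin or its splice variants. Alpha-5 with beta-1 is the classical receptor for the RGD site of fibronectin. Itga5 (ENSMUSG00000000555, chr15:103344286-103366763, minus strand) had 26.6 and 8.64 CPM in control replicates 1 and 3, and 10.7 and 25.4 CPM in TRC replicates 1 and 3. Its libraries disagreed within each group and the groups overlapped. The log2 fold change was 0.03 with an SE of 0.52 and an edgeR FDR of 0.976. Left-out libraries moved it from -0.73 to 1.06, and the 95% interval from DESeq2 ran from -0.97 to 1.05.

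Alpha-4 binds fibronectin and the vascular adhesion molecule VCAM-1. Itga4 (ENSMUSG00000027009, chr2:79255426-79333123, plus strand) had 128 and 110 CPM in control cells and 120 and 108 CPM in TRCs. These 4 values were interleaved. Its log2 fold change of -0.06 with an SE of 0.20 was not called, with an edgeR FDR of 0.898 and a DESeq2 95% interval from -0.46 to 0.34. The exons of Itga4 share 1124 bases with exons of Cerkl on the opposite strand, a gene with 48 to 183 counts per library, and which strand setting was used for counting is not given in the sources used here.

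Alpha-9 is the closest relative of alpha-4 and binds tenascin-C, osteopontin and the EDA segment of fibronectin. Itga9 (ENSMUSG00000039115, chr9:118606690-118901003, plus strand) had 31.2 and 18.3 CPM in control replicates 1 and 3, and 78.3 and 67.5 CPM in TRC replicates 1 and 3. Both TRC values were above both control values. The log2 fold change was 1.56 with an SE of 0.29 and an edgeR FDR of 2.06e-06, and it ranged from 1.22 to 1.99 with one library left out at a time, called each time.

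Itgb1 encodes beta-1, the chain shared by the fibronectin and laminin receptors formed by the alpha chains described here. The gene (ENSMUSG00000025809) lies at chr8:128685654-128733200 on the plus strand. Its level was 795 and 743 CPM in control cells and 903 and 1069 CPM in TRCs. The TRC libraries were above the control libraries, but the log2 fold change of 0.36 with an SE of 0.19 was not called, with an edgeR FDR of 0.313. Its DESeq2 95% interval ran from -0.02 to 0.74.

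Itga6 and Itga3 encode laminin-binding alpha chains. Itga6 (ENSMUSG00000027111, chr2:71745616-71858416, plus strand) had 194 CPM in control replicate 1 and 231 CPM in control replicate 3, and it had 128 and 130 CPM in TRC replicates 1 and 3. Both TRC values were below both control values. The log2 fold change was -0.72 with an SE of 0.20 and an edgeR FDR of 0.0162. The Itga6 call rested on several libraries, since the edgeR FDR was 0.187 without control replicate 3, 0.157 without TRC replicate 1 and 0.135 without TRC replicate 3, and it was 0.0653 with the dispersion shrunk toward the common value. Itga3 (ENSMUSG00000001507, chr11:95044474-95076801, minus strand) was near the lower limit in all libraries, with 28 and 40 counts in control cells and 38 and 19 counts in TRCs. Those counts correspond to 0.630, 1.13, 0.914 and 0.457 CPM. The groups overlapped, and the gene did not pass the filter on low counts. With no filter its log2 fold change was -0.38 with an edgeR FDR of 0.919.

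**Figure D2:**
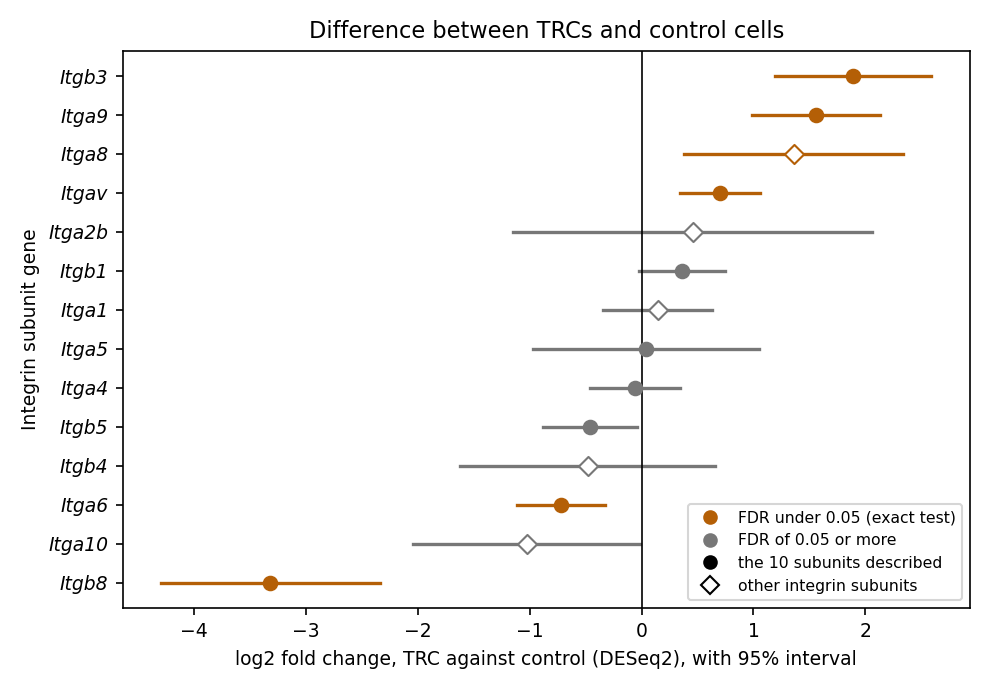
Log2 fold change of TRCs against control cells for the integrin subunits that passed the filter on low counts, from DESeq2, with bars for the 95% interval before adjustment over genes. Filled circles are the subunits described above and open diamonds the other integrin subunits; orange marks an FDR under 0.05 in the edgeR exact test, held by Itgb3, Itga9, Itga8, Itgav, Itga6 and Itgb8, and grey the rest.

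To compare the subunits with each other, counts were divided by the summed exon length of each gene and scaled to a sum of 1000000 in every library, here called TPM. On this per-length scale Itgb1 was far above all other subunits, at 655 and 610 TPM in control cells and 746 and 805 TPM in TRCs, and it made up 90.4% to 92.8% of the beta-chain transcripts of the 4 beta genes in every library. In control cells the next levels were those of Itga6 at 72.1 and 85.7 TPM, Itgav at 59.7 and 59.6 TPM and Itgb5 at 57.0 and 57.8 TPM. Itga4 followed at 30.7 and 26.3 TPM. Below it came Itga5, with 18.1 and 5.87 TPM, Itga9, with 13.6 and 7.97 TPM, and Itgb3, with 8.29 and 3.81 TPM. Itgb3 was the lowest of these in both control libraries. Itga5 was above Itga9 in control replicate 1 and below it in control replicate 3. Itgb8, at 1.72 and 3.22 TPM, and Itga3, at 0.371 and 0.665 TPM, were lowest in control cells.

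In TRCs the order of these levels was different at several places. Itgav, at 97.4 and 88.5 TPM, stood above Itga6, at 47.9 and 44.2 TPM, so that the ratio of Itgav to Itga6 levels was 0.828 and 0.696 in control cells and 2.03 and 2.0 in TRCs. Itga9 reached 34.3 and 27.0 TPM and was above Itga4, at 29.0 and 23.7 TPM, in each TRC library, whereas it was below Itga4 in each control library. The summed exon length of Itga4 was 13978 bases and its longest transcript 9767, against 7691 and 7020 for Itga9. Per base of the longest transcript Itga9 was below Itga4 in every library, so this order depends on the length used. Itgb5, at 38.7 and 41.2 TPM, remained above Itgb3, at 22.0 and 20.9 TPM. Itgb5 exceeded Itgb3 6.88-fold and 15.2-fold in the control libraries and 1.76-fold and 1.97-fold in the TRC libraries. Itgb8, at 0.279 and 0.200 TPM, was below Itga3, at 0.540 and 0.246 TPM, in each TRC library, whereas it was above Itga3 in each control library. The TRC values of these genes rest on at most 38 counts each. These ratios and orders describe the libraries and were not tested.

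Of the transcripts of the 6 alpha genes, Itgav held 30.7% and 32% in control cells and 45% and 44.4% in TRCs. The share of Itga6 was 37.0% and 46.0% in control cells and 22.1% and 22.2% in TRCs, and that of Itga9 was 7.0% and 4.28% against 15.9% and 13.5%. Itga4, whose CPM values overlapped, held 15.8% and 14.1% in control cells and 13.4% and 11.9% in TRCs. The shares of Itgav, Itga9, Itga6 and Itga4 did not overlap between the groups, and a share also moves when the other genes of the sum do. With 2 libraries per group, the CPM values of 60.6% of all genes tested did not overlap either. The summed level of the 6 alpha genes was 195 and 186 TPM in control cells and 216 and 199 TPM in TRCs, so the make-up of the alpha-chain transcripts differed more than their sum. Relative to its partners other than beta-1, Itgav was present at 0.890 and 0.920 times the summed level of Itgb3, Itgb5 and Itgb8 in control cells and at 1.6 and 1.42 times in TRCs. This ratio depends on the length used, since Itgav has 10744 bases of summed exon length and 7054 in its longest transcript. Its absolute size is therefore not settled. With the length of the longest transcript in place of the summed exon length, the share of Itgav was 28.2% in control cells and 43.9% in TRCs on average, and that of Itga6 was 51.2% and 29.9%.

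**Figure D3:**
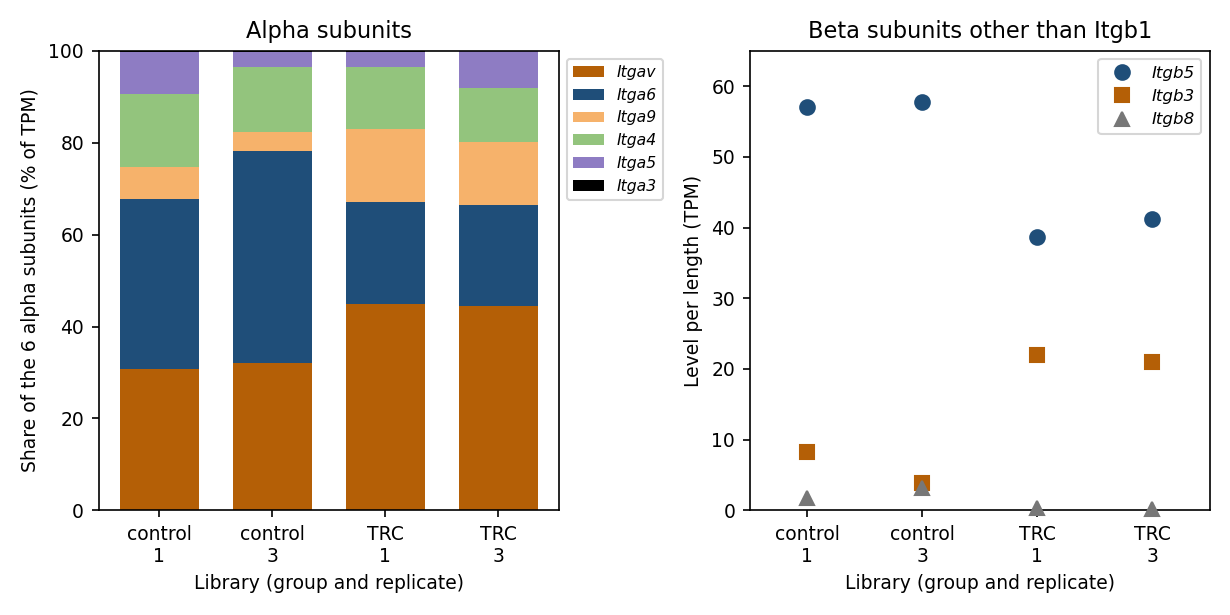
Left, share of each alpha subunit in the summed per-length level (TPM) of the 6 alpha genes, as stacked bars for each library; Itgav rises from 30.7% and 32% in control cells to 45% and 44.4% in TRCs, and Itga3 is too small to see. Right, per-length level in TPM of Itgb5, Itgb3 and Itgb8 in each library, 1 point per library; Itgb5 and Itgb3 lie closer together in the TRC libraries than in the control libraries.

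Of the 17 other integrin subunits 5 passed the filter on low counts and 1 was called, beside 15.9% of all genes tested. Itga8, the chain of the nephronectin and osteopontin receptor, was at 2.05 and 1.28 CPM in control cells and at 4.14 and 4.4 CPM in TRCs, a log2 fold change of 1.35 with an edgeR FDR of 0.0283. Among the 4 that were not called, the collagen-binding Itga10 had 3.26 and 3.06 CPM in control cells and 1.71 and 1.39 CPM in TRCs, with an edgeR FDR of 0.116. Itga1, a collagen receptor chain, had 23.4 and 24.7 CPM in control cells and 29.4 and 23.7 CPM in TRCs, and its groups overlapped. Itgb4, the partner of alpha-6 in hemidesmosomes, had 2.99 and 3.26 CPM against 1.32 and 3.15 CPM. Itga2b, the platelet partner of beta-3, had 0.967 and 0.538 CPM against 1.06 and 1.01 CPM. Of the 12 genes not tested, the leukocyte chains Itgam and Itgax and the gene Itgb2l had 0 counts in all 4 libraries, which allows up to 0.0835 CPM in the shallowest library (3 counts, counting error only).

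Among the matrix and cell-surface ligands of these receptors, 21 of 34 listed genes passed the filter, and 5 were called higher and 4 lower, beside 8.81% and 7.05% of all genes tested. Their log2 fold changes had a median of 0.33, beside 0.003 over all genes tested. Npnt (nephronectin, the ligand of alpha-8 with beta-1) rose from 5.26 and 3.49 CPM to 32.1 and 16.0 CPM, a log2 fold change of 2.45 with an edgeR FDR of 7.23e-07. Lama5, the laminin alpha-5 chain, was at 52.0 and 41.1 CPM in control cells and at 102 and 83.6 CPM in TRCs, with an edgeR FDR of 7.09e-04. Edil3, a secreted RGD protein bound by alpha-v receptors, rose by a log2 fold change of 1.5 at an edgeR FDR of 0.0101. In the downward direction Nid1 (nidogen-1, a basement membrane protein that binds laminin) fell from 42.9 and 40.2 CPM to 17.6 and 14.1 CPM, with an edgeR FDR of 1.05e-05. L1cam, an adhesion molecule bound by alpha-v and alpha-5 receptors, was lower, by a log2 fold change of -1.19, at an edgeR FDR of 0.00123. Fn1, fibronectin, the ligand of alpha-5, was at 111 and 56.2 CPM in control cells and at 31.5 and 43.0 CPM in TRCs, a log2 fold change of -1.17 with an edgeR FDR of 0.00295. The fibrinogen genes Fga, Fgb and Fgg were at or near 0 in every library, at no more than 1 count.

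Integrin activators and adaptors, which couple the tails to actin and to kinases, had 37 of 42 listed genes tested, with 3 called higher and 5 called lower, beside 8.81% and 7.05% of all genes tested, and a median log2 fold change of -0.02. The genes called higher were Pxn (paxillin), at 56.3 and 55.5 CPM in control cells and 87.2 and 91.2 CPM in TRCs with an edgeR FDR of 0.0185, Apbb1ip (RIAM, which recruits talin) with a log2 fold change of 1.49 and an edgeR FDR of 0.0397, and the kinase gene Src with a log2 fold change of 0.60 and an edgeR FDR of 0.0494. Tln2, the gene of talin-2, fell from 110 and 145 CPM to 55.7 and 63.4 CPM with an edgeR FDR of 1.55e-04. Zyx, the gene of the focal adhesion protein zyxin, fell from 232 and 173 CPM to 94.1 and 94.7 CPM with an edgeR FDR of 1.70e-04. Flna, the gene of filamin A, which binds beta tails and actin, was lower, by a log2 fold change of -0.87, at an edgeR FDR of 0.00259.

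Membrane proteins that associate with integrins had 18 of 18 listed genes tested, with 6 called higher and 1 called lower, beside 8.81% and 7.05% of all genes tested, and a median log2 fold change of 0.31. Cav1, caveolin-1, was at 8.84 and 4.31 CPM in control cells and at 24.1 and 53.4 CPM in TRCs, a log2 fold change of 2.56 with an edgeR FDR of 5.81e-07. Bsg (basigin) was at 325 and 335 CPM in control cells and at 682 and 1388 CPM in TRCs, with an edgeR FDR of 7.56e-06. Cd47, a partner of alpha-v with beta-3, was at 22.0 and 29.2 CPM in control cells and at 46.3 and 72.2 CPM in TRCs, with an edgeR FDR of 4.08e-04. The gene called lower was Tspan4, a tetraspanin, with a log2 fold change of -0.66 and an edgeR FDR of 0.0322. Of the genes that recycle internalised receptors, 12 of 14 were tested. The edgeR exact test called 0 of them, beside 15.9% of all genes tested. An unadjusted p under 0.05 in that test was held by 2 of the 12, beside 3220 of all 11483 genes tested. DESeq2 called 2 of the 12 higher, beside 1090 of the 11483. The median log2 fold change of these 12 genes was 0.11.

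**Figure D4:**
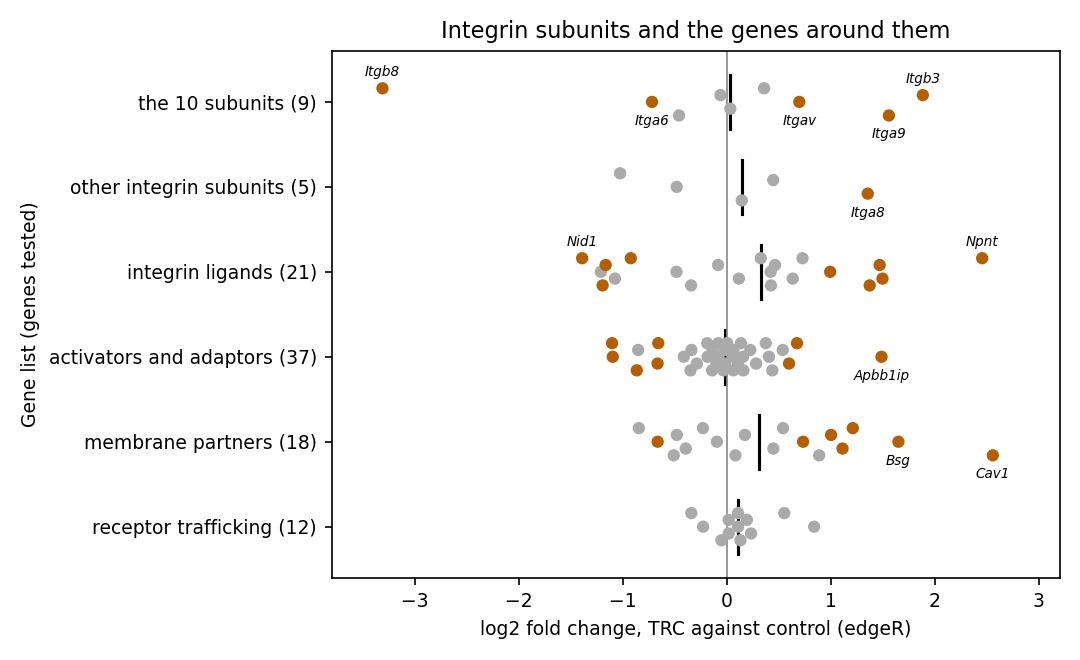
Log2 fold change of TRCs against control cells (edgeR) for each tested gene of the integrin subunits and of the lists around them, with the number tested in brackets. Orange points had an FDR under 0.05, grey points did not, and the black line is the list's median; the integrin ligands and membrane partners have medians of 0.33 and 0.31, while the called subunits lie on both sides of 0.

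The cell identity of both groups was checked with marker genes. All 8 melanocyte markers were tested and had positive log2 fold changes from 0.12 to 1.14, 1 of them called (Dct), and their summed level was 19418 and 16224 CPM in control cells and 24519 and 27316 CPM in TRCs. Fibroblast markers were low, at 40.7 and 24.9 CPM in control cells and 10.2 and 8.56 CPM in TRCs summed over 8 genes. Of the 8, 4 were tested: Col1a2 and Postn were called lower, with log2 fold changes of -2.52 and -2.16, and Col1a1 (-0.38) and Pdgfra (0.13) were not called. Pdgfrb, not tested, had 32 and 10 counts in control cells and 0 and 5 counts in TRCs. Col3a1, Dcn and Lum were at or near 0 in all libraries. Leukocyte markers summed to at most 4.97 CPM, with Ptprc at 0 in all libraries, endothelial markers to at most 2.50 CPM, with Cdh5 and Kdr at 0, and epithelial markers to at most 2.29 CPM. The part of these marker differences in the integrin results was not tested.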

How the data were processed

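RNA was measured in 2 control and 2 TRC libraries of a single cell line. Per the labels and the study's methods, reads from a stranded kit were trimmed with Trimmomatic 0.35 and aligned to GRCm38 with TopHat2 2.1.0, and the authors deposited whole-number read counts per Ensembl gene from HTSeq, whose strand and mode settings are not given in the sources used here. Gene counts totalled 35948295 to 43511554 per library, so 3 counts, the floor used here, equalled 0.0689 to 0.0835 CPM. Alignments counted as not unique equalled 15.2% to 25.2% of the sum of all counts, including those assigned to no gene, most in TRC replicate 3. Rows of reads assigned to no gene were removed before library sizes were taken.

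Genes with at least 1 CPM in at least 2 libraries were tested (11483 of 39179) with the exact test of edgeR 4.0.16, using TMM factors, tagwise dispersions, a prior count of 0.125 and Benjamini-Hochberg adjustment over all tested genes, at FDR 0.05. The test and the filter follow the study's methods, which do not name the denominator of the CPM. Here it was the counts on genes. With the sum of all counts in its place, including those assigned to no gene, 11223 genes were tested and 1809 called, instead of 1822. SEs and 95% intervals came from DESeq2 1.42.0. CPM values are TMM-normalized, and TPM-like levels used GENCODE M21 exon lengths. Coding ends were read from GENCODE M21 transcripts, identities came from global alignment, and the edgeR and DESeq2 fits were tested on simulated data. The integrin members and all gene lists were chosen with earlier results of these data known. Named were all members, every other integrin subunit that passed the filter, and up to 3 called genes per direction and list. Alternatives covered filters, normalization, dispersion, the quasi-likelihood test with and without a replicate block, DESeq2, gene length and leaving out each library. All per-sample columns were used.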

Additional observations from a re-analysis of the deposited data

How the results depend on the processing

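Itgb3 and Itga9 kept their direction and their call under all 17 alternatives and Itgb8 under the 16 that tested it; Itgav was called under 11 and Itga6 under 12 of 17, and no fold change of a called member changed sign. Genes called over all genes ranged from 785 under the quasi-likelihood test with replicate block, 1054 without it and 1668 with no filter to 2036 with DESeq2 and 2466 with the block and a GC and length correction, beside 1822; leaving out a library gave 773 to 1932. The main fit had no replicate block, since the study's methods name none. Same-numbered libraries deviated with a correlation of 0.03 over genes, which with 2 libraries per group cannot show whether the numbers are pairs. The replicate block gave an FDR of 0.0543 for Itgav and 0.0576 for Itga6, and 2 members were called higher and 1 lower. With the block and the GC and length correction Itgb5 was called (-0.63, FDR 0.0198). Members called lower (2) were 1 with 1 CPM required in 3 libraries and 1 with dispersions shrunk toward the common value, an alternative chosen after seeing the data, and 1 to 2 without a library. Ligands called higher (5) were 3 with library size only, 3 with a dispersion trend, 2 in the quasi-likelihood test, 3 with the block and 2 to 5 without a library; ligands called lower (4) were 2 with the block and 2 to 4 without a library. Adaptors called higher (3) were 1 with no filter, library size only, the quasi-likelihood test, the block with correction or common-value dispersions, 0 with the block, and 0 to 1 without a library; adaptors called lower (5) were 3 in the quasi-likelihood test, the block and common-value dispersions, and 2 to 4 without a library. Membrane partners called lower (1) were 0 in the quasi-likelihood test, the block and common-value dispersions, 2 with the block and correction, and 0 to 2 without a library. Other subunits called higher (1) were 0 in the quasi-likelihood test and with the block, and 0 to 1 without a library; called lower (0), 1 with common-value dispersions. Trafficking genes called higher (0) were 1 with a trend, 1 with common-value dispersions and 2 with DESeq2; called lower (0), 1 with the block and correction. Leaving out a library reduces the samples by construction, and with 1 CPM required in 3 libraries Itgb8 was not tested. The cause of the other changes was not tested. With 2 libraries per group, small differences such as those of Itgb5 and Itgb1 were not resolved.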

Other observations

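The RefSeq promoter windows (250 bases before to 50 after the start, GRCm38.p6) were given for 8 of the 10 members. Either HIF core, GCGTG or ACGTG on either strand, occurred in the windows of Itgb5, Itga4 and Itga9 and in 43.8% of all windows; the start used for the Itga9 window lies 105002 bases from the GENCODE start of the gene. The AP-1 site TGANTCA occurred in the Itga9 window, in 1 of the 2 windows of Itga3 and in 7.81% of all windows. The E-box CATGTG occurred in that Itga3 window and in 14.2% of all windows. The E-box CACGTG occurred in no member window and in 7.15% of all windows. The windows of Itgav, Itgb8, Itga5 and Itgb1, and 1 of the 2 windows of Itga3, held none of these motifs; the start used for the Itgb8 window lies 526 bases from the GENCODE start.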
